A study of Homo sapiens with 2 samples.

Results

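The genes described here were RN7SK, which encodes the 7SK RNA, and 7 protein-coding genes around it: HEXIM1, LARP7 and MEPCE, whose products bind 7SK, CDK9, CCNT1 and CCNT2, which encode the kinase P-TEFb, and AFF4, a scaffold that carries P-TEFb. These 8 of the 54261 genes in the count table were selected by name from the 7SK pathway, with their counts in both libraries already known, so their values are a description and no test was run on them. The cells were RKO, a line from a human colon carcinoma. The control group (si-NC) received a negative control siRNA and the other group an siRNA to the splicing factor SRSF2 (si-SRSF2), with no other treatment named. Each group was 1 library, so no difference had a replicate check, and every interval given covers counting error only. For SRSF2 the study lists a single siRNA sequence.

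P-TEFb phosphorylates RNA polymerase II and the factors that hold it near the start of a gene, and this releases the polymerase into elongation. The 7SK RNA keeps part of the cell's P-TEFb inactive: MEPCE caps its 5′ end, LARP7 holds its 3′ end, and HEXIM1 bound to the RNA blocks the kinase. SRSF2 is a known partner of the 7SK complex at promoters and, when it binds nascent RNA, takes part in the release of P-TEFb from 7SK. The 7SK RNA is made by RNA polymerase III and has no poly(A) tail, whereas the libraries were made with a kit for poly(A) mRNA.

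RN7SK (ENSG00000283293.1) is a single exon of 328 bases on the plus strand, at chr6:52995621-52995948 of GRCh38. Its first 110 bases, at chr6:52995621-52995730, are shown because HEXIM1 is known to bind GATC repeats (GAUC in the RNA) there. The capitals mark the 3 copies of GATC, which are all the copies in the gene.

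RN7SK, first 110 bases: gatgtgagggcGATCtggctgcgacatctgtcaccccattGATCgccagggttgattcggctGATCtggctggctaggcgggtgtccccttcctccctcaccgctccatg

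The next 60 bases shown, at chr6:52995892-52995951, run just past the annotated end of the gene at 52995948. They are given because the libraries selected poly(A). The capitals mark the closing run of T, the usual stop signal of RNA polymerase III, of which only the first T lies in the annotated gene.

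RN7SK, last 60 bases: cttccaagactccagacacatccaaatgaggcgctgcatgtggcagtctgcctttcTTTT

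The longest run of A in RN7SK was 3 bases, whereas 93.9% of 17058 canonical transcripts with counts had a longer one, although longer transcripts have more room for such a run. GATC occurred 9.15 times per kb in RN7SK, against a median of 2.57 per kb over these transcripts, and 98.9% of them had a lower density, although a transcript this short gives a coarse density. The letters GGNG, with C allowed in place of either or both of the first G and N for any base, are the preferred site of SRSF2. They occurred 23 times in RN7SK when overlapping matches were counted, or 7.01 per 100 bases, against a median of 6.25.

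The si-SRSF2 siRNA could be compared with these genes by sequence. The strand listed for it, and the guide strand that pairs with its target, were as follows, with the seed of the guide (bases 2 to 8) in capitals.

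si-SRSF2, listed strand: uccaaauccaggucgcgautt

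si-SRSF2, guide strand: aUCGCGACcuggauuugga

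The 19 bases before the 3′ overhang matched SRSF2 exactly and matched none of the 8 genes. The seed site GTCGCGA occurred in the canonical transcript of none of the 8 either, and in 1.08% of 34408 transcripts. The same held for the seed site of the control siRNA, TGTCACG, which occurred in 3.93% of transcripts.

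The libraries held 19931360 counts (si-NC) and 14512802 counts (si-SRSF2), and mitochondrial genes took 4.45% and 4.82% of them. Levels are given in CPM, which are counts scaled to the size of each library, and every log2 ratio is si-SRSF2 over si-NC after adding 0.5 CPM to both. The targeted gene, SRSF2, stood at 98.5 CPM with si-NC and at 49.1 CPM with si-SRSF2. Of 11 markers of colon epithelium, EPCAM, KRT8, KRT18 and CDX2 averaged 1 CPM or more, while KRT20, CDX1 and LGALS4 had no counts and the other 4 had at most 10. The 11 summed to 79.4 and 97.1 CPM in the respective libraries. Markers of blood cells summed to 763 and 982 CPM, nearly all of it CD68, a lysosomal protein that is not confined to blood cells, with CD3E at 0 and PTPRC at 2 and 0 counts. Fibroblast markers summed to 0.803 and 0.965 CPM and endothelial markers to 0.201 and 0.138 CPM, with DCN and PECAM1 at 0. The part of any other cell type in the values below was not tested.

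RN7SK was the only one of the 8 genes that differed at least 2-fold between the libraries. The si-NC library held 50 counts of it and the si-SRSF2 library 357, which is 2.51 CPM (95% exact Poisson interval 1.86 to 3.31) and 24.6 CPM (22.1 to 27.3). The si-SRSF2 library was thus the high one, and the intervals lay far apart. The CPM ratio was 9.80 (95% Clopper-Pearson interval 7.28 to 13.5), and the log2 ratio was 3.06. Of the 12620 genes averaging 1 CPM or more, 0.848% were at least 2-fold higher with si-SRSF2, and RN7SK was the third of all by log2 ratio. Because the gene had been chosen with this value known, the rank is a description.

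**Figure D1:**
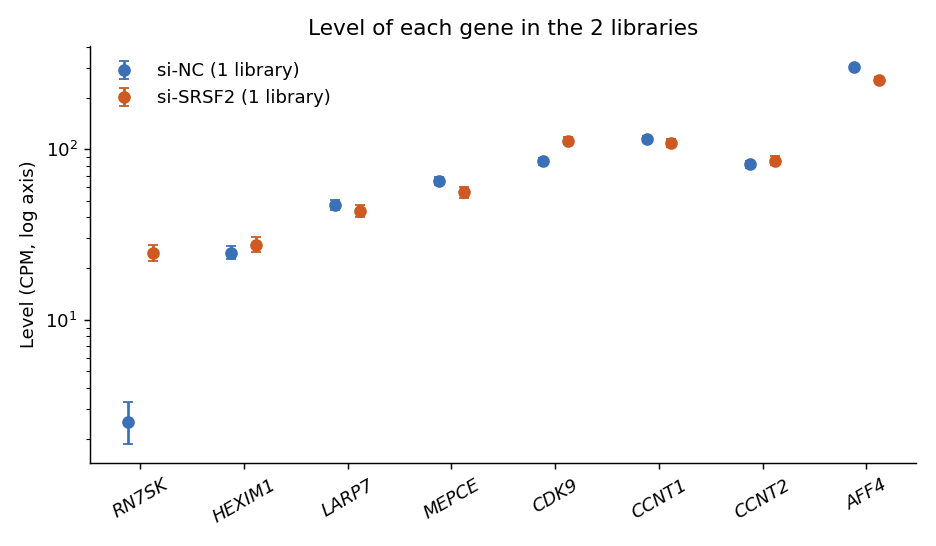
Level of each of the 8 genes (CPM, log axis) in the si-NC library (blue) and the si-SRSF2 library (orange); points are the single value of each library and bars are 95% exact Poisson intervals. RN7SK was at 2.51 CPM (si-NC) and 24.6 CPM (si-SRSF2), while the other 7 genes differed by at most 1.32 times.

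Per length of transcript, RN7SK was near the bottom of the pathway in si-NC and at its top in si-SRSF2. In CPM it was the lowest of these genes in both libraries. The next, HEXIM1, stood at 24.8 CPM (si-NC) and 27.6 CPM (si-SRSF2), against 2.51 and 24.6 CPM for RN7SK. Compared per length of the canonical transcript, as CPM per kb, the level in si-NC was highest for CDK9 (34.3), followed by AFF4 (32), MEPCE (23.2), LARP7 (22.3), CCNT1 (16.8), CCNT2 (11.8), RN7SK (7.65) and HEXIM1 (6.84). Among neighbours in this order, RN7SK and HEXIM1 did not differ beyond counting error, with a ratio of 1.12 (95% interval 0.82 to 1.5), nor did MEPCE and LARP7, with a ratio of 1.04 (0.95 to 1.13). In si-SRSF2, RN7SK stood first at 75 CPM per kb, 1.66 times the level of CDK9 (interval 1.48 to 1.86). LARP7 and MEPCE, at 20.7 and 19.8 CPM per kb, were then the only neighbours that did not differ beyond counting error. A poly(A) library does not capture an RNA without a tail as it captures mRNA, so the level of RN7SK against the mRNAs here is that of the library.

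Copies of 7SK are scattered over the genome, and they bear on how reads of RN7SK could be placed. Of the 298 stretches of 31 bases in RN7SK, 89.6% occurred more than once on the chromosomes of GRCh38 and 29.9% also occurred on its other scaffolds. The share found more than once was 8.24% for LARP7 and at most 0.195% for each of the other 6 genes, and none of the 7 had a stretch on another scaffold. Longer stretches were more often unique, counting exact matches only. Of windows taken every 10 bases, 22 of 28 windows of 50 bases occurred more than once. The same held for 12 of 23 windows of 100 bases and 0 of 18 windows of 150 bases, the read length before trimming. In the count table, 293 pseudogene copies were listed under RN7SKP symbols and 27 of them had a count in either library. Together these copies had 118 and 140 counts, a CPM ratio of 1.63 (95% Clopper-Pearson interval 1.27 to 2.10). Among the 2 copies averaging 1 CPM or more, only RN7SKP70 (15 and 35 counts) was at least 2-fold higher, against 0.848% of all genes. This copy was under 1 CPM with si-NC (0.753) and passed the filter through si-SRSF2 (2.41), so nothing is read from that count. The other, RN7SKP16, named after its values were seen, had 40 and 37 counts. With RN7SK and all copies summed, an alternative chosen after seeing the data, the counts were 168 and 497, the CPM ratio was 4.06 (3.40 to 4.87) and the log2 ratio was 1.96.

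The genes nearest to RN7SK in log2 ratio, over the 2 libraries, were ALPI, an intestinal alkaline phosphatase (0 and 31 counts, lying 0.66 below RN7SK on the log2 scale), PTPRK, a receptor phosphatase (9 and 63 counts, 0.71 below), and RPPH1, the RNA of RNase P (1 and 104 counts, 0.74 above). With so few counts in si-NC, the log2 ratios of ALPI and RPPH1 depend on the added 0.5 CPM. For RPPH1 the CPM ratio was 143, with a 95% Clopper-Pearson interval from 25.1 to 5694. The only genes ranked above RN7SK were RPPH1 and RMRP, the RNA of RNase MRP, which went from 10 to 230 counts, a CPM ratio of 31.6 (16.9 to 66.7). ALPI, PTPRK, RPPH1 and RMRP were each under 1 CPM in si-NC and entered the ranked genes through si-SRSF2, so nothing is read from their ranks. RN7SK, RMRP and RPPH1 are all made by RNA polymerase III from promoters upstream of the gene, as are the Y RNAs, whose symbols, copies included, summed to 42 counts in either library, a CPM ratio of 1.37 (0.87 to 2.16).

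**Figure D2:**
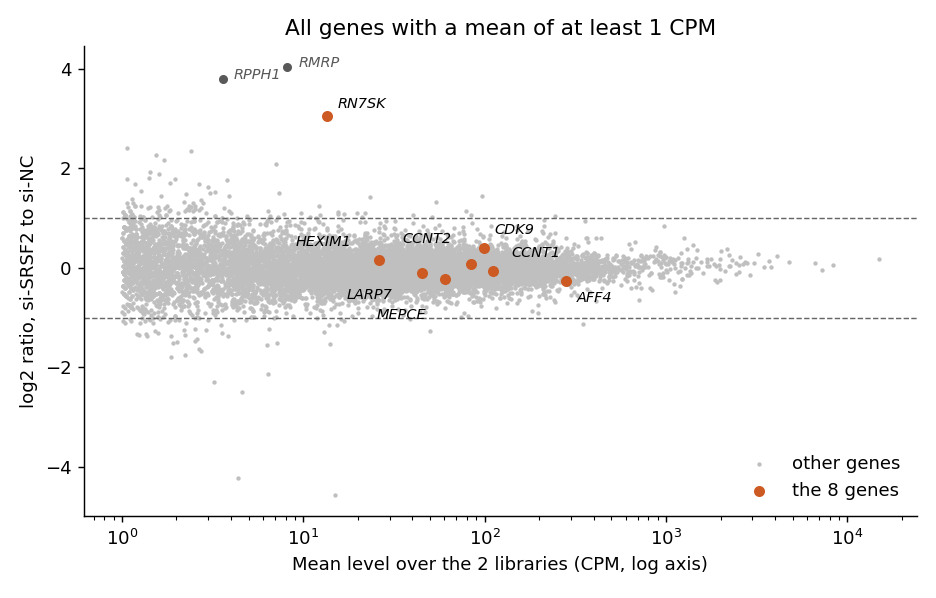
Log2 ratio (si-SRSF2 over si-NC) against the mean level (CPM, log axis) for the 12620 genes averaging 1 CPM or more (grey), with the 8 genes in orange and RMRP and RPPH1 in dark grey; dashed lines mark 2-fold. RN7SK sits at 3.06, below only RMRP and RPPH1, while the 7 mRNAs lie within the cloud of other genes.

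RNAs without a poly(A) tail did not all go the way of RN7SK. A list of such RNAs (RMRP, RPPH1, TERC, the signal recognition particle RNA, spliceosomal, Y, vault, small nucleolar and Cajal body RNAs, and their listed copies) summed to 396 and 421 CPM, a ratio of 1.06 (95% Clopper-Pearson interval 1.03 to 1.10). Of its 2958 symbols, 2417 had no counts and 74 averaged 1 CPM or more. Of these 74, 45 were higher in si-SRSF2 and 29 were lower, with a median log2 ratio of 0.11 against -0.02 for all genes, of which 46.2% were higher. At least 2-fold higher were RMRP, RPPH1, SNORA62 (14 and 28 counts) and SCARNA10 (9 and 27), and SNORA9 (49 and 10) was at least 2-fold lower, which is 4 and 1 of the 74, against 0.848% and 0.499% of all genes. Each of these 5 was under 1 CPM in its lower library and entered the 74 through the other, so nothing is read from that count. Among the 10 that averaged 5 CPM or more, of which 9 were small nucleolar RNAs, the median was -0.43 and 8 were lower, so the sign of this list's median turned with the filter.

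By class, small Cajal body RNAs summed to 89 and 117 counts, a CPM ratio of 1.81 (1.36 to 2.41). Symbols starting RNU, for spliceosomal RNAs and their copies, had a ratio of 1.24 (1.10 to 1.39), and those starting RN7SL, for the signal recognition particle RNA and its copies, 1.30 (1.12 to 1.5). Box H/ACA and box C/D small nucleolar RNAs, many of which lie inside introns of mRNA genes, had ratios of 0.957 (0.913 to 1.004) and 0.945 (0.889 to 1.004). Vault RNAs had 0 and 1 counts. TERC, the RNA of telomerase, named after its values were seen, had 1 and 14 counts, a ratio of 19.2 (2.92 to 813). The part of poly(A) selection in the value of RN7SK was not tested.

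The mRNAs of the proteins that hold 7SK were close to the control level. HEXIM1 (ENSG00000186834.4), the inhibitor, is an intronless gene at chr17:45148475-45152099, with 494 counts in the control library and 401 after si-SRSF2. Its CPM ratio was 1.11 (95% Clopper-Pearson interval 0.97 to 1.27), so a difference in level was not detectable at this depth. LARP7 (ENSG00000174720.18; chr4:112637077-112657696), the La-related protein that protects the 3′ end, had 938 and 633 counts and a ratio of 0.93 (0.84 to 1.03), again within counting error. MEPCE (ENSG00000146834.15; chr7:100428322-100434126), the capping enzyme, had 1303 and 810 counts, or 65.4 and 55.8 CPM, and its ratio of 0.85 (0.78 to 0.93) lay below no change. Strand setting matters for these genes, because in GENCODE 44 MEPCE shares 671 bases with ZCWPW1 (39 and 31 counts) on the other strand, HEXIM1 shares 1700 with HEXIM2-AS1 and LARP7 shares 3576 with MIR302CHG. On its own strand MEPCE shares 5786 bases with an unnamed protein-coding gene, and all 328 bases of RN7SK lie in a further 7SK entry, overlaps that strand cannot resolve. Of these overlapping entries only ZCWPW1 is in the count table under the same name, so whether the others played a part in the counting is not known.

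A ratio of reads of 2 genes in the same library does not depend on how libraries are scaled. For RN7SK over HEXIM1 this ratio went from 0.10 in si-NC to 0.89 in si-SRSF2, a factor of 8.78 (95% conditional interval 6.32 to 12.4). For RN7SK over LARP7 the factor was 10.6 (7.70 to 14.8), and for RN7SK over MEPCE it was 11.5 (8.40 to 16). These factors mostly restate the difference of RN7SK, which was known when it was chosen.

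HEXIM2, the paralog of HEXIM1 that lies near it on chromosome 17, was lower in si-SRSF2, at a low level in both libraries. Its counts were 55 and 17, or 2.76 and 1.17 CPM, and its CPM ratio was 0.42 (95% Clopper-Pearson interval 0.23 to 0.74). HEXIM2 was picked with its values in view, since it averaged under 5 CPM. Its log2 ratio was -0.96, short of 2-fold. With 0.1 CPM added in place of 0.5 it was -1.17, and with 2 CPM added it was -0.59. Reads of HEXIM2 over HEXIM1 went from 0.11 to 0.04, a factor of 0.38 (95% conditional interval 0.20 to 0.68).

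The catalytic subunit of P-TEFb was the mRNA that stood furthest from the control. CDK9 (ENSG00000136807.14; chr9:127785679-127790792) had 1699 counts with si-NC and 1629 in the shallower si-SRSF2 library, or 85.2 CPM (95% exact Poisson interval 81.2 to 89.4) and 112 CPM (107 to 118). It was therefore higher in si-SRSF2, and the intervals did not overlap. The CPM ratio was 1.32 (95% Clopper-Pearson interval 1.23 to 1.41) and the log2 ratio 0.39, above that of 91.2% of all genes tested.

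Its cyclin partners did not share this difference. CCNT1 (ENSG00000129315.12; chr12:48688458-48716998), the main cyclin of P-TEFb, had 2279 and 1580 counts, or 114 and 109 CPM, a ratio of 0.95 (0.89 to 1.02). CCNT2 (ENSG00000082258.13; chr2:134918235-134959342), the alternative cyclin, had 1629 and 1247 counts, or 81.7 and 85.9 CPM, a ratio of 1.05 (0.98 to 1.13). Neither cyclin differed beyond counting error. CDK9 over CCNT1 differed by a factor of 1.38 (95% conditional interval 1.26 to 1.52) and CDK9 over CCNT2 by 1.252 (1.13 to 1.39). Per length of transcript, CDK9 had 1.20 times the summed level of both cyclins in si-NC and 1.59 times in si-SRSF2.

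AFF4 (ENSG00000072364.13; chr5:132875395-132963634), the scaffold of the super elongation complex, was the most abundant of the 8 in CPM. Its counts were 6074 and 3705, or 305 and 255 CPM. It was lower in si-SRSF2, with a CPM ratio of 0.84 (95% Clopper-Pearson interval 0.80 to 0.87) and a log2 ratio of -0.26, below that of 81.3% of genes. Its paralog AFF1, which can take its place in the complex and was named after its values were seen, had 3348 and 2703 counts and a log2 ratio of 0.15. Reads of AFF1 over AFF4 differed by a factor of 1.32 (95% conditional interval 1.24 to 1.41).

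**Figure D3:**
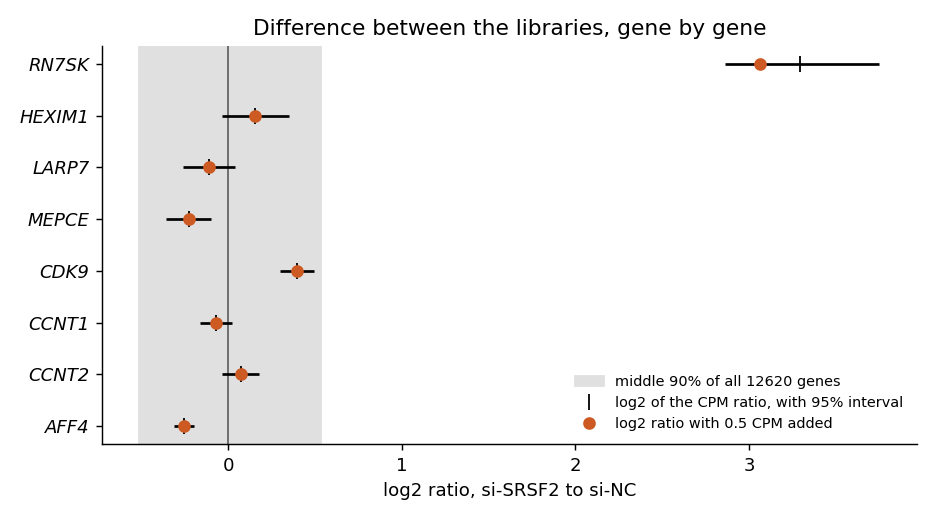
Log2 ratio (si-SRSF2 over si-NC) for each gene: orange points have 0.5 CPM added, black ticks are the ratio of CPM without it, and black lines are its 95% Clopper-Pearson intervals. The grey band holds the middle 90% of the 12620 genes, from -0.51 to 0.53; RN7SK at 3.06 is outside it and the 7 mRNAs, from -0.26 to 0.39, are inside.

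As a group the 7 mRNAs spread much as other genes did. Their log2 ratios ran from -0.26 to 0.39 with a median of -0.07, against -0.02 for all 12620 genes, and 3 were higher and 4 lower. None was 2-fold different in either direction, as were 0.848% (higher) and 0.499% (lower) of all genes. At a smaller threshold, 25% higher or, in the other direction, 20% lower, CDK9 alone was past it upward and none of the 7 downward, against 11.8% and 13.3% of all genes. The interval lay above no change for 1 of the 7 (CDK9) and below it for 2 (MEPCE and AFF4), against 21.0% and 26.7% of all genes, which is near the share among genes at large. The intervals of the other 4 held no change.

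Among the 21 pairs of these mRNAs, the interval of the change in read ratio left out 1 for 14 pairs and held it for 7. The share over pairs of all genes was not computed, so nothing particular to these pairs is read from that count. All 6 pairs with CDK9 were among the 14, which follows in part from CDK9 having the highest ratio of the 7. The widest gap was that of CDK9 over AFF4, with a factor of 1.57 (95% conditional interval 1.45 to 1.70). For MEPCE over AFF4 the factor was 1.02 (0.92 to 1.12) and for LARP7 over CCNT1 it was 0.97 (0.86 to 1.10), so no difference within these pairs was detectable.

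**Figure D4:**
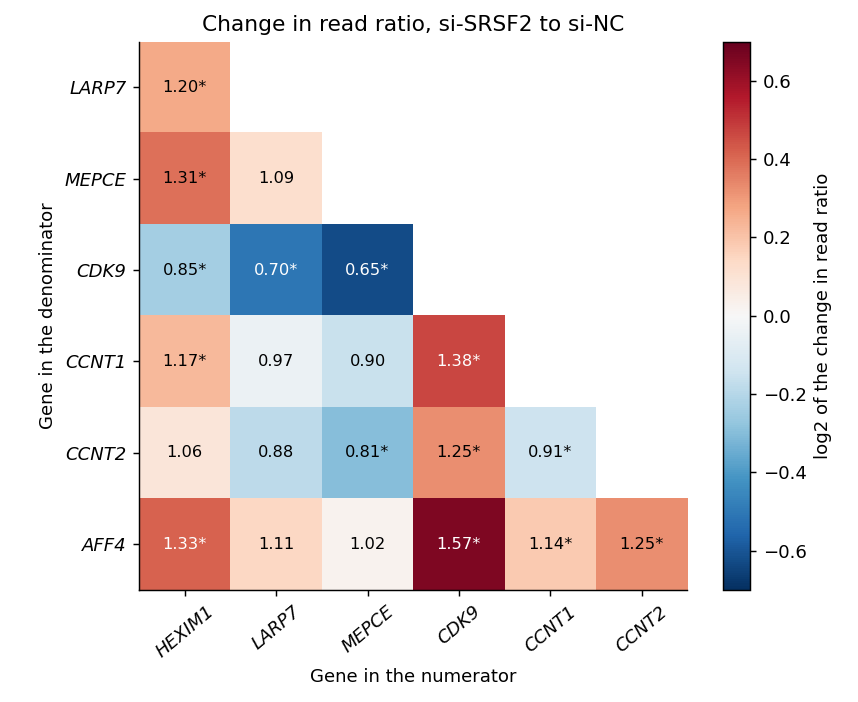
Factor by which the read ratio of a gene (columns) over another (rows) differed in si-SRSF2 from si-NC, for the 21 pairs of mRNAs; colour is its log2 and an asterisk marks a 95% conditional interval that leaves out 1. The factor furthest from 1 is that of CDK9 over AFF4, at 1.57.

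The promoters of RN7SK, HEXIM1 and MEPCE held a short motif that those of the other 5 genes lacked. The letters TATATA, chosen after the sequence of RN7SK was seen and searched on the transcribed strand from 35 to 16 bases before the start, occurred in RN7SK, in the single promoter of HEXIM1 and in 1 of 3 promoters of MEPCE. They occurred in no listed promoter of LARP7, CDK9, CCNT1, CCNT2 or AFF4, and in 0.95% of 35116 RefSeq promoters. The 60 bases before each start are shown, with TATATA in capitals. They lie on the plus strand of GRCh38 at chr6:52995561-52995620 (RN7SK), chr17:45148415-45148474 (HEXIM1) and chr7:100428730-100428789 (MEPCE), and the latter 2 come from the RefSeq table built on GRCh38.p14.

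RN7SK, upstream: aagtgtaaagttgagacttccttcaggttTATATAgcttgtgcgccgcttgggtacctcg

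HEXIM1, upstream: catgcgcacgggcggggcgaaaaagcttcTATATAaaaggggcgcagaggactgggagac

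MEPCE, upstream: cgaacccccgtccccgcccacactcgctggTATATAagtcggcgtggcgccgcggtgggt

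The 3 genes with these letters had CPM ratios of 9.80, 1.11 and 0.85, so their values did not go together.

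Among 13 paralogs and partners of the 7SK proteins, 12 averaged 1 CPM or more, of which 4 were higher and 8 lower, with a median log2 ratio of -0.03. With 0.5 CPM added none was 2-fold different, although the plain CPM ratio of HEXIM2 was. At least 20% lower were 2 of the 12, near the 13.3% of all genes, namely HEXIM2 and BCDIN3D, a relative of MEPCE named after its values were seen (107 and 57 counts, a CPM ratio of 0.73, interval 0.52 to 1.02). Among those averaging 5 CPM or more the range was narrow. DHX9, an RNA helicase, was the highest, at 0.21, and HNRNPA1, which takes up 7SK released from P-TEFb, the lowest, at -0.08. SSB, the La protein that binds new RNA polymerase III transcripts, was named after its values were seen and stood at -0.06.

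The other genes of the super elongation complex were mostly higher with si-SRSF2, unlike AFF4. Of 10 listed, 9 averaged 1 CPM or more, and 8 of these were higher in si-SRSF2 and 1 lower, with a median log2 ratio of 0.16. Of all genes, 46.2% were higher. None of the 9 was past the smaller threshold, and the interval lay above no change for 5 and below it for 1, against 21.0% and 26.7% of all genes. AFF3 had the highest value among those averaging 5 CPM or more, at 0.25 on 94 and 83 counts, and EAF1, a partner of the ELL elongation factors, the lowest, at -0.17.

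Factors that release or recruit P-TEFb went both ways, with 4 higher and 6 lower of 10 and a median log2 ratio of -0.10. HSP90AA1, a chaperone in the assembly of P-TEFb, was the highest, at 0.36 (25843 and 24177 counts), and the only one of the 10 at least 25% higher, near the 11.8% of all genes. DDX21, a helicase that can release P-TEFb from 7SK, was the lowest, at -0.25 (5874 and 3584 counts).

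Of 12 pausing and elongation factors, 11 averaged 1 CPM or more, with 5 higher, 6 lower and a median of -0.05. RTF1, an elongation factor, was the highest, at 0.43 (2161 and 2129 counts), and NELFCD, a subunit of the pausing factor NELF, the lowest, at -0.20. NELFE had no counts in either library. All of its 31-base stretches that were found on the chromosomes also occurred on other scaffolds of the reference, which can hide reads, so its level is unknown here.

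The other kinases of RNA polymerase II and their partners spread more widely, with 3 higher and 6 lower of 9 and a median of -0.06. CDK19, a kinase of the Mediator complex, was the lowest, at -0.62 (463 and 217 counts), and CDK12, which phosphorylates elongating polymerase, the highest of those averaging 5 CPM or more, at 0.17. CDK7, the kinase of TFIIH, named after its values were seen, had the highest log2 ratio of the list, at 0.84. It had only 56 and 79 counts, and 90.3% of its stretches also occurred on other scaffolds, so its value is uncertain. Reads of CDK9 over CDK12 differed by a factor of 1.17 (95% conditional interval 1.06 to 1.28). CDK13, a close relative of CDK12 named after its values were seen, had 568 and 306 counts and a log2 ratio of -0.43, and CDK9 over CDK13 differed by a factor of 1.78 (1.52 to 2.08).

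Short-lived mRNAs of immediate early genes, whose transcription depends on release of paused polymerase, were more often lower than higher. Of 14 listed, 1 had no counts in either library and 13 averaged 1 CPM or more. For IER3, named after the values of the list were seen, 97.4% of its 31-base stretches on the chromosomes also occurred on other scaffolds. Of the 13, 10 were lower and 3 higher, with a median log2 ratio of -0.15, while 46.2% of all genes were higher. The interval lay above no change for 1 and below it for 7, against 21.0% and 26.7% of all genes. At least 20% lower were 5 of the 13, against 13.3% of all genes, and none was at least 25% higher. DUSP1, a phosphatase of MAP kinases, was the lowest, from 2411 to 1028 counts, or 121 to 70.8 CPM, a CPM ratio of 0.59 (95% Clopper-Pearson interval 0.54 to 0.63). FOSL1, a subunit of AP-1, was the highest, at 0.31. MYC, named after its values were seen, stood at -0.02, so the list did not go 1 way.

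The genes for the machinery that transcribes RN7SK were measured as mRNA only, and their part in its level was not tested. Of 23 genes for RNA polymerase III and its upstream promoter factors, 13 were higher and 10 lower, with a median log2 ratio of 0.04, and none was 2-fold different. POLR1C, a shared subunit of RNA polymerases I and III, was the highest, at 0.28 (474 and 422 counts), and POLR3G, the alternative subunit found in stem and tumour cells, the lowest, at -0.54 (1642 and 822 counts, a CPM ratio of 0.69, interval 0.63 to 0.75). Reads of POLR3GL, its paralog, named after its values were seen, over POLR3G differed by a factor of 1.36 (95% conditional interval 1.17 to 1.58).

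**Figure D5:**
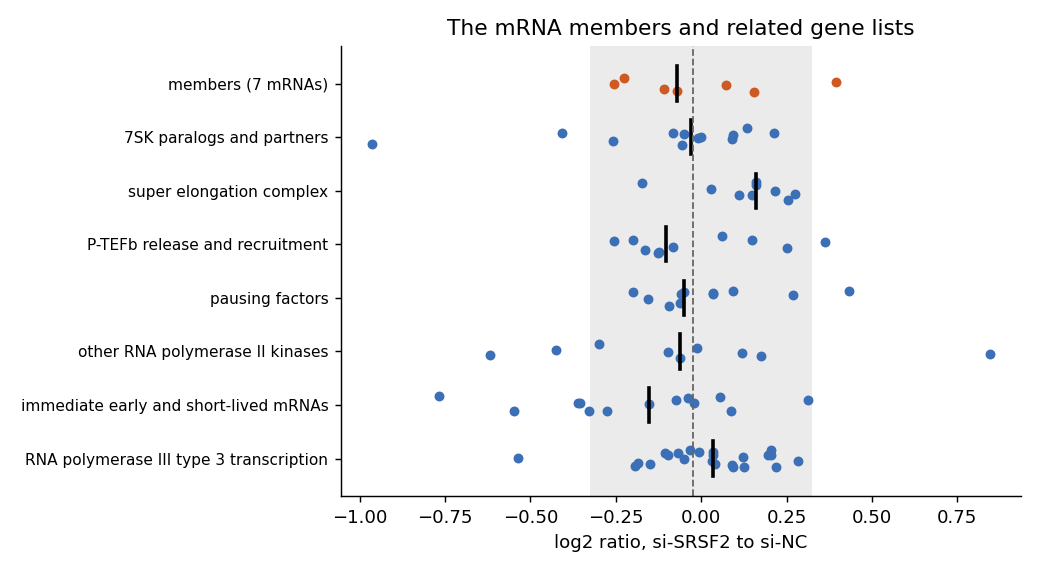
Log2 ratio (si-SRSF2 over si-NC) for the 7 mRNA members (orange) and for 7 related gene lists (blue), 1 point per gene averaging 1 CPM or more; black bars are medians, the dashed line is the median of all genes (-0.02) and the grey band runs from 20% lower to 25% higher. The medians run from -0.15 for the immediate early genes to 0.16 for the super elongation complex, and with 0.5 CPM added none of these genes is 2-fold different.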

How the data were processed

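RKO cells transfected with si-NC or si-SRSF2 gave 1 library each. The authors made stranded poly(A) libraries, read as 150 bp pairs, trimmed the reads, aligned them with Hisat2 (2.0.4 in the submitters' processing notes) to GRCh38 and counted them with HTSeq; they deposited raw counts per gene symbol. The strand setting and the treatment of reads with several positions are not given in the sources used here, so overlapping genes are uncertain. The methods name Ensembl release 100, but many symbols in the table are NCBI-style (starting LOC), so lengths and overlaps from GENCODE may differ from the gene models counted.

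Here counts were scaled by TMM (edgeR 4.0.16, R 4.3.3) and expressed as CPM. Log2 ratios had 0.5 CPM added, over the 12620 genes averaging 1 CPM or more. With 1 library per group no test was run. Intervals (95%, SciPy 1.17.1) were Clopper-Pearson for CPM ratios, exact Poisson for levels and conditional for ratios between genes; the calculation was tested on simulated data. Transcript lengths came from GENCODE 44, sequences from GENCODE, RefSeq and the study's oligo list; 7 of the 8 genes had a RefSeq promoter entry. The members and lists were chosen with earlier results of these data known. Named genes were the members, SRSF2, the 2-fold genes of each list or else its highest and lowest gene averaging 5 CPM or more, and the 3 genes nearest to RN7SK; others are marked in the text. Other settings tried were scaling by total counts, by upper quartiles and by size factors of DESeq2 1.42.0, other added CPM, other filters, totals without mitochondrial and the 20 most abundant genes, and Wald intervals.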

Additional observations from a re-analysis of the deposited data

How the results depend on the processing

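No paired analysis was possible because there was only 1 library of each kind, and for the same reason no replicate could be left out. Of 175 values recomputed under the alternatives, 160 stayed within their interval or within 1.5 times the count, 15 moved, and 0 that were at least 25% higher or 20% lower changed sign. Some of the 160 could not move, because intervals do not use the added CPM and a filter leaves a list as it was where the same genes enter. The log2 ratio of RN7SK was 2.56 with 2 CPM added and 1.96 with its copies summed, the latter chosen after seeing the data, and none of the 8 genes changed sign. The number of genes at least 2-fold higher and lower, 107 and 63, was 185 and 120 with 0.1 CPM added, 28 and 17 with 2 CPM, 239 and 109 without a filter on low counts, and 26 and 16 at 5 CPM or more. At least 25% higher and 20% lower there were 3577 and 2931 genes without a filter, and 867 higher at 5 CPM or more. By construction, added CPM pulls low counts toward no difference and a filter sets how many genes enter. The median of the 7SK pseudogene copies was 0.21 without a filter (0.75 over 2 copies with it), and that of the RNAs without poly(A) went from 0.11 to -0.43 at 5 CPM or more, a change of sign. Wald intervals left out 1 for 23 of 28 pairs of members, against 21. Depth limits RN7SK through its 50 counts in si-NC.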
